A study of Rattus norvegicus with 6 samples.

Results

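The replication genes examined here are 45 genes that copy DNA in S phase: they license and fire origins, unwind and copy the double helix, supply nucleotides, and repackage and remethylate the new strands, together with the regulator E2f1. They were chosen by name from their known function, with earlier results of these data known. Shares set beside all tested genes are therefore descriptions. Of the 45, 44 had a row in a table of 32623 genes, and E2f1 was not analysed here. The cells were H9C2, a myoblast line from embryonic rat heart, grown in medium with 1 g/L glucose. Ctrl cells were untreated, HG cells were kept in 33 mM glucose for 8 h, and siFGFR1+HG cells were transfected with a small interfering RNA against Fgfr1, a fibroblast growth factor receptor gene, before the same glucose. Each group held 2 libraries of bulk RNA. No control siRNA is named in the labels, nor whether Ctrl and HG cells were transfected, so the siRNA and the transfection cannot be told apart in siFGFR1+HG, and the glucose of HG was shared by siFGFR1+HG but not by Ctrl. Nor are separate cultures named for the libraries of a group, so the spread behind the p-values is that between these samples and may be technical.

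Before S phase, the origin recognition complex, Cdc6 and Cdt1 load the ring of Mcm2 to Mcm7 onto DNA, which licenses an origin. In S phase, Cdc45 and the GINS complex join that ring to form the active helicase, primase and the polymerases copy the strands, and Pcna, a sliding clamp set in place by the Rfc complex, holds the polymerases on DNA. Many of these genes are known targets of E2F transcription factors, which the RB proteins hold in check until growth factor signalling drives cyclin-dependent kinases.

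The levels of all 44 measured replication genes were lowest in siFGFR1+HG. Their summed level was 1862 and 1876 FPKM (fragments scaled to gene length and to library size) in Ctrl, 1707 and 1744.5 in HG, but 1044 and 1059 in siFGFR1+HG. The groups did not overlap, and the step from HG to siFGFR1+HG was larger than that from Ctrl to HG. In siFGFR1+HG against HG, 43 of the 44 fell at an adjusted p under 0.05 (edgeR's quasi-likelihood test, Benjamini-Hochberg over 12229 genes tested), against a background of 15.9% of all tested genes called lower. The median log2 fold change of the 44 was -0.70 (1.62-fold lower; range -1.15 to -0.26), beside -0.0084 over all tested genes. The 44 also lay lower in both siFGFR1+HG libraries than in both HG libraries, as did 34.1% of tested genes. A fall of at least 1.5-fold was called for 29 of the 44, beside 2.75% of tested genes. In bulk RNA a smaller share of cells in S phase and less of these transcripts per cell cannot be told apart.

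In HG against Ctrl fewer replication genes passed the test. Of the 44, 10 fell (22.7%), beside 7.85% of all tested genes called lower, and 34 missed the threshold. None was called higher by edgeR, beside 5.81% of tested genes, 1 (Rfc4) was higher at an unadjusted p under 0.05, beside 14.0% of tested genes, DESeq2 called 0 higher, and limma called 1 (Rpa3). The median log2 fold change was -0.12 (range -0.44 to 0.20), beside 0.0033 over all tested genes. In scaled counts both HG libraries lay below both Ctrl libraries for 25 genes, beside 30.0% of tested genes. They lay above for Rfc4, Rfc5 and Rpa3, beside 3586 of the 12229 tested genes, and overlapped for 16, beside 4977. In siFGFR1+HG against Ctrl all 44 fell, beside 12.4% of tested genes called lower, with a median log2 fold change of -0.82 (1.77-fold lower; range -1.20 to -0.37). Both siFGFR1+HG libraries lay below both Ctrl libraries for all 44, beside 31.6% of tested genes, and 38 were called at least 1.5-fold lower, beside 3.24%. These comparisons share libraries, so their values stand side by side and do not support each other. The group means ran in the order Ctrl, HG, siFGFR1+HG for 29 of the 44. Scaled counts of the 3 groups did not overlap in that order for 25, and 10 were called lower in all 3 comparisons. These 25 and 10 are the same genes as those counted above for HG against Ctrl. The share of all tested genes in this order was not computed.

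**Figure D1:**
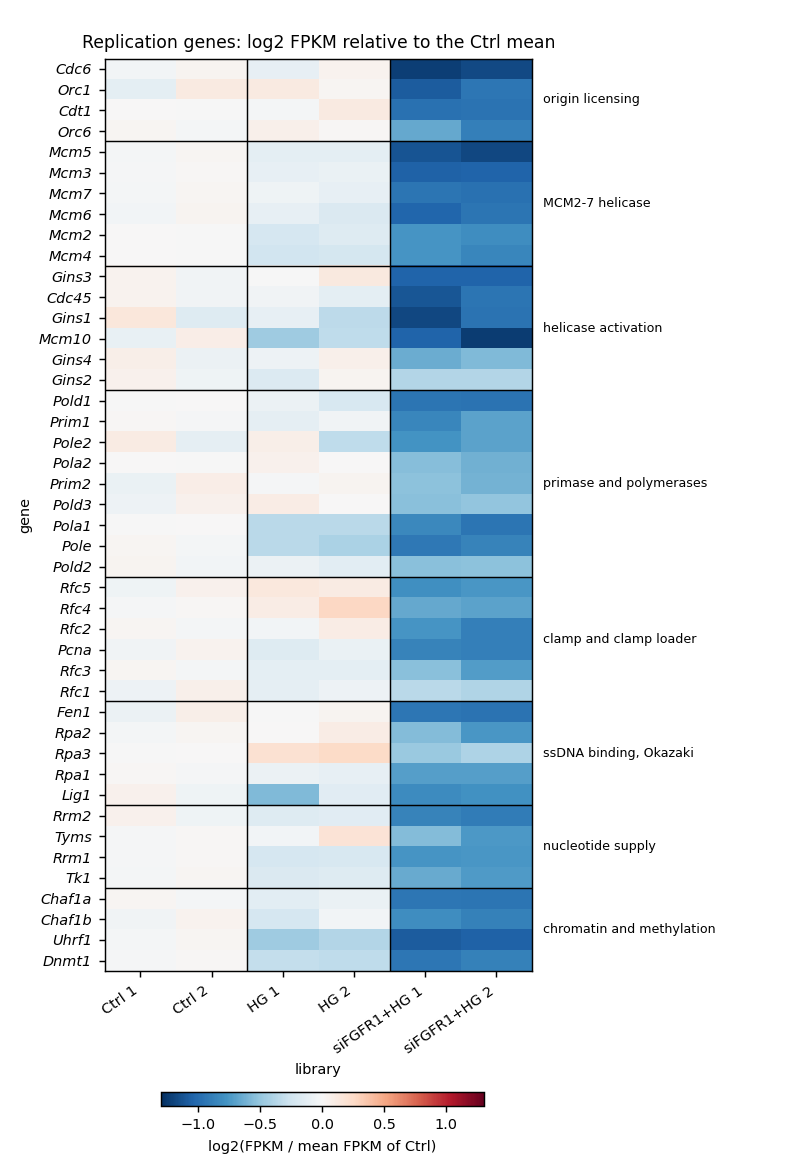
Level of each of the 44 replication genes in each of the 6 libraries, as log2 FPKM relative to the mean of the Ctrl libraries, with genes in rows grouped by role. Both siFGFR1+HG columns are below Ctrl in every row, while the HG columns are mixed: in FPKM 24 genes lay below Ctrl in both HG libraries, 4 lay above and 16 overlapped. Shares of all tested genes were not computed in FPKM. In scaled counts 30.0% of them lay below Ctrl in both HG libraries, and 31.6% in both siFGFR1+HG libraries.

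The libraries held between 46960084 and 75021470 counts in all, where the number of counts that 1 fragment gives is not known, and replicates lay close together. The higher of a group's libraries was above the lower by a median of 1.04-fold in Ctrl, 1.05-fold in HG and 1.04-fold in siFGFR1+HG over the 44 genes. The widest gaps were 1.24-fold for Gins1 in Ctrl, 1.35-fold for Lig1 in HG and 1.17-fold for Orc6 in siFGFR1+HG. Fgfr1 itself reached 4 counts (possibly a single fragment) in 1 Ctrl and 1 siFGFR1+HG library and 0 in the other 4, too few to check the knockdown, so the siRNA group rests on its label alone.

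Origin licensing genes showed a large fall in siFGFR1+HG against HG, and none was called in HG against Ctrl. Over all tested genes 7.85% were called lower there and 5.81% higher, so no call among 4 genes is near the background. The 4 members, Orc1, Orc6, Cdc6 and Cdt1, all fell in siFGFR1+HG against HG, with a median log2 fold change of -1.03, and none passed the test in HG against Ctrl by edgeR, DESeq2 or limma, or at an unadjusted p under 0.05 (median 0.02, smallest adjusted p 0.66). Cdc6, the ATPase that works with the origin recognition complex to load the helicase, was at 15.2 and 15.98 FPKM in Ctrl, 14.4 and 16.04 in HG, then 6.68 and 6.90 in siFGFR1+HG. Its groups Ctrl and HG overlapped, and both siFGFR1+HG libraries were below every other library. The log2 fold change against HG was -1.15 ± 0.069 (2.22-fold lower, adjusted p = 0.000253), the largest fall among the 44. Orc6, the smallest subunit of the origin recognition complex, was at 16.3 and 15.7 FPKM in Ctrl, 16.7 and 16.2 in HG, then 10.1 and 8.64 in siFGFR1+HG. It fell the least of the 4, by a log2 fold change of -0.80 ± 0.096 (adjusted p = 0.00196), again with Ctrl and HG overlapping. Orc1, the ATPase subunit of the same complex, had a log2 fold change of -1.07, and Cdt1, which brings the MCM ring to the origin, had -0.999, with libraries at 20.2 and 20.1 FPKM in Ctrl, 19.8 and 21.9 in HG, then 10.3 and 10.4 in siFGFR1+HG.

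All 6 genes of the MCM ring fell in siFGFR1+HG against HG, by log2 fold changes between -1.01 and -0.56 (median -0.85). For each of them the 3 groups lay apart in the order Ctrl, HG, siFGFR1+HG. Of all tested genes, 30.0% lay lower without overlap in HG against Ctrl and 34.1% in siFGFR1+HG against HG. The share of tested genes in this order over both steps was not computed. In the deposited table's coordinates, Mcm2 on chr4:120825699-120840111, Mcm3 on chr9:26914057-26932201, Mcm4 on chr11:89511191-89524892, Mcm5 on chr19:14523554-14561278, Mcm6 on chr13:45042882-45068077 and Mcm7 on chr12:19306607-19314016 are spread over separate loci, and the rat build of these coordinates is not given in the sources used here. Mcm5 was at 72.9 and 75.1 FPKM in Ctrl, 67.7 and 67.6 in HG, then 33.9 and 32.6 in siFGFR1+HG. Its siFGFR1+HG libraries lay far below the other 4, and the log2 fold change against HG was -1.01 ± 0.035 (2.02-fold lower, adjusted p = 7.31e-05). Mcm3 was at 48.0 and 48.8 FPKM in Ctrl, 44.8 and 45.5 in HG, then 23.3 and 23.5 in siFGFR1+HG. The siFGFR1+HG libraries were again far below the rest, with a log2 fold change of -0.94 ± 0.036 against HG (adjusted p = 0.000103). Mcm7 was at 109.6 and 114 FPKM in Ctrl, 108 and 104 in HG, then 57.7 and 57.0 in siFGFR1+HG. It is the most abundant of the ring in every library, and it fell by 0.87 ± 0.036 on the log2 scale (adjusted p = 0.000137). Mcm6 was at 95.8 and 101 FPKM in Ctrl, 91.5 and 86.8 in HG, then 48.1 and 50.8 in siFGFR1+HG, a log2 fold change of -0.84 ± 0.050 between the last 2 groups (adjusted p = 0.000253).

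For Mcm2 and Mcm4 the fall was spread more evenly over the 2 steps than for the other ring genes, a difference between genes that was not tested. Mcm2 was at 77.7 and 77.7 FPKM in Ctrl, 66.9 and 69.0 in HG, then 45.6 and 44.5 in siFGFR1+HG. Mcm4 was at 77.8 and 77.6 FPKM in Ctrl, 65.3 and 66.4 in HG, then 45.6 and 43.2 in siFGFR1+HG. Both were lower in HG than in Ctrl, by log2 fold changes of -0.21 ± 0.033 (adjusted p = 0.0118) and -0.26 ± 0.036 (adjusted p = 0.00890), and both calls were lost without either Ctrl library. Their log2 fold changes in siFGFR1+HG against HG were -0.58 ± 0.033 (adjusted p = 0.000240) and -0.56 ± 0.036 (adjusted p = 0.000305), the smallest of the 6. Mcm5 also fell in HG against Ctrl, by a log2 fold change of -0.15 ± 0.035 (adjusted p = 0.0390), and that call was lost in 10 of the 16 alternative analyses. Mcm3 (-0.12), Mcm6 (-0.16) and Mcm7 (-0.10) missed the threshold there, with adjusted p = 0.0769, 0.0791 and 0.127. DESeq2 called all 6 lower in HG than in Ctrl and limma 2. As a description with no test, Mcm2 made up 15.1% to 16.1% of the summed ring FPKM in the Ctrl and HG libraries and 17.7% to 17.9% in siFGFR1+HG, and Mcm4 14.7% to 16.1% and 17.2% to 17.9%. The share of Mcm5 moved the other way, from 15.1% to 15.4% in Ctrl and HG to 12.96% to 13.3% in siFGFR1+HG. So did that of Mcm3, from 9.89% to 10.37% to 9.16% to 9.34%, and slightly that of Mcm7, from 22.75% to 24.23% to 22.66% to 22.70%. The share of Mcm6 overlapped. The shares are parts of the same sum, so a rise in some means a fall in others.

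**Figure D2:**
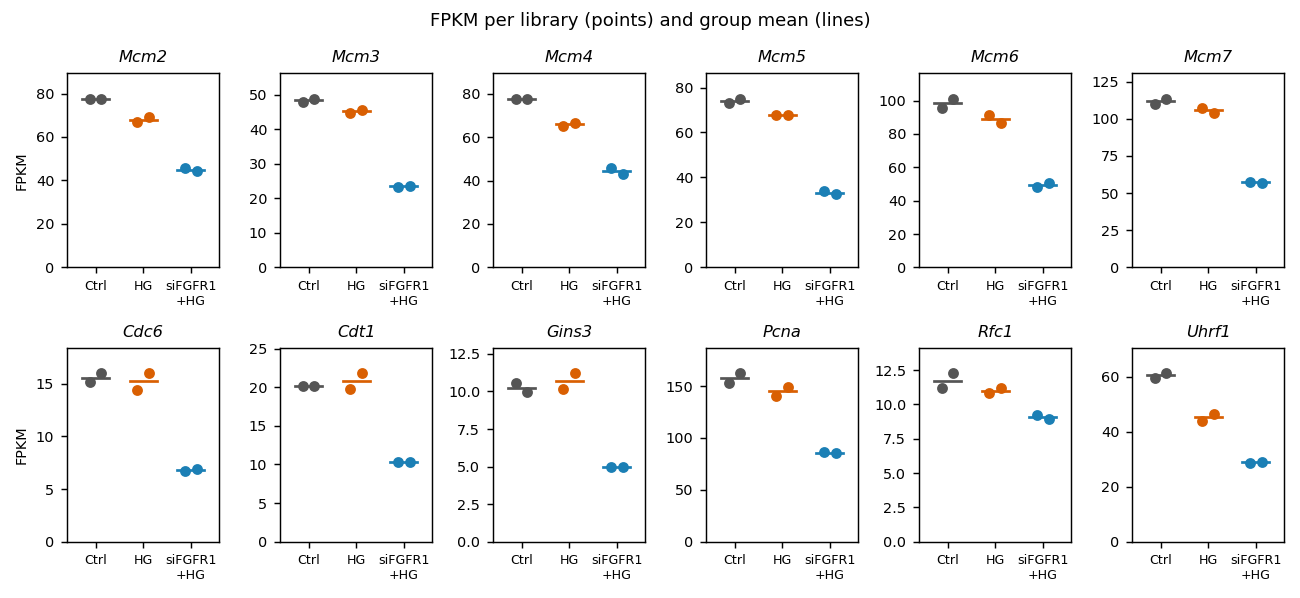
FPKM in each library (points) and group means (lines) for Mcm2 to Mcm7, Cdc6, Cdt1, Gins3, Pcna, Rfc1 and Uhrf1 in Ctrl, HG and siFGFR1+HG, with a separate linear axis from 0 for each gene. The siFGFR1+HG points are lowest in all 12 panels, and the gap to HG is narrowest for Rfc1.

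Promoters of 4 of the ring genes hold letters that E2F factors are known to bind. RefSeq gave a single promoter in the rat build GRCr8 for 37 of the 44 genes, and several for Uhrf1, which was not used. Cdc6, Gins4, Mcm4, Orc1, Rpa3 and Rrm2 had no entry, so their promoters were not searched. The words TTTCCCGC, TTTGGCGC, TTTCGCGC and TTTGCCGC were searched on both strands of the 250 bases before each start. They stood in 8 of the 37 promoters (21.6%), beside 1.73% of all 33469 promoters of the same length, 3.63% of the 7941 belonging to tested genes and 3.89% of the 6527 of those within the replication genes' range of GC content (44.8% to 71.6%). The 8 belong to Mcm2, Mcm5, Mcm6, Mcm7, Gins1, Gins3, Tyms and Pola1, with 14 matches in all, some of which overlap on opposite strands, the nearest between 1 and 165 bases before the start. They are shown because 4 of the 6 ring genes are among them. Of the other ring genes, Mcm3 had no match and Mcm4 was not searched. Rfc1, picked because its fall was the smallest of the 44, is shown beside the 8 as a promoter with no match. It does not stand for the 29 without a match, whose log2 fold changes in siFGFR1+HG against HG ran from -0.999 (Cdt1) to -0.26 (Rfc1). Capitals mark the matched letters, and each line reads 5′ to 3′ in the direction of its gene. Of the 14 matches 13 lie in the stretches shown, and the other, TTTCCCGC on the opposite strand of Mcm7, stands 226 to 233 bases before its start.
Mcm2: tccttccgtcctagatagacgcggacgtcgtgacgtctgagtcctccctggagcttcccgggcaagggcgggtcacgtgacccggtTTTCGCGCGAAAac
Mcm5: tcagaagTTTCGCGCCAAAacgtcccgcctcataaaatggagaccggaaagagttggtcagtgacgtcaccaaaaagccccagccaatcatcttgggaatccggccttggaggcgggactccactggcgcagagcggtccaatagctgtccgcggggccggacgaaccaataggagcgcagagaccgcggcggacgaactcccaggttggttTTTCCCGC
Mcm6: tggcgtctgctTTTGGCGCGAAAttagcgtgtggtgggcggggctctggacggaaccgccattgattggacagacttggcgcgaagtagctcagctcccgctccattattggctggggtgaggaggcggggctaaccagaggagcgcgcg
Mcm7: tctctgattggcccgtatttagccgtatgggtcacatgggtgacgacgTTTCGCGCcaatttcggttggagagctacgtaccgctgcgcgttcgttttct
Gins1: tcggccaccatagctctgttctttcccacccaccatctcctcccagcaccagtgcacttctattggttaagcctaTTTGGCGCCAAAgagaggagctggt
Gins3: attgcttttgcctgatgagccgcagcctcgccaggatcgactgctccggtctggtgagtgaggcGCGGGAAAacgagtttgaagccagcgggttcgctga
Tyms: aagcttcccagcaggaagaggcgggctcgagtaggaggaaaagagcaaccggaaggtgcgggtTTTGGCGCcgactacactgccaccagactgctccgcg
Pola1: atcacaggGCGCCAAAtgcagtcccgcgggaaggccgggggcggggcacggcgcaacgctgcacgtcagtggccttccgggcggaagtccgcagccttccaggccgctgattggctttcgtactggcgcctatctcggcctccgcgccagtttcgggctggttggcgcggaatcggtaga
Rfc1: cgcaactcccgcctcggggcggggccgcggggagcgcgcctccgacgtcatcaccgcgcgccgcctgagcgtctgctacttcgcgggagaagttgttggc
In GRCr8 these stretches are chr4:122918095-122918194 on the minus strand, chr19:13488593-13488812 on the plus strand, chr13:42404353-42404502 on the minus strand, chr12:22163179-22163278 on the minus strand, chr3:160184820-160184919 on the plus strand, chr19:9434680-9434779 on the minus strand, chr9:120776084-120776183 on the minus strand, chrX:62342356-62342535 on the minus strand and chr14:43319898-43319997 on the plus strand. In Mcm2, Mcm5, Mcm6 and Gins1 the capitals run past 8 letters because matches on opposite strands overlap. The median log2 fold change in siFGFR1+HG against HG was -0.83 over the 8 genes with a match (range -1.09 to -0.52) and -0.67 over the 29 without (range -0.999 to -0.26), ranges that overlap widely, and this difference was not tested. The box CCAAT, also searched on both strands, stood in 54.1% of the 37 promoters, beside 36.7% of those of tested genes and 39.5% within the same GC range, and TTTGAA, the core of the cell cycle homology region, in 8.11% beside 10.1%. A match describes these letters only.

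Genes that turn the loaded ring into a working helicase all fell in siFGFR1+HG against HG as well. The 6 members, Cdc45, Mcm10 and Gins1 to Gins4, had a median log2 fold change of -0.78 in siFGFR1+HG against HG. Gins3, a subunit of the GINS complex, was at 10.6 and 9.93 FPKM in Ctrl, 10.2 and 11.2 in HG, then 4.99 and 4.99 in siFGFR1+HG. Ctrl and HG overlapped, and the level against HG was 2.13-fold lower (log2 fold change -1.09 ± 0.089, adjusted p = 0.000616). Gins2, another subunit of the same complex, was at 8.11 and 7.50 FPKM in Ctrl, 6.92 and 7.99 in HG, then 5.98 and 6.01 in siFGFR1+HG. Its fall was small, with a log2 fold change of -0.30 ± 0.084 (adjusted p = 0.0388), and the call was lost in 9 of the 16 alternatives. Cdc45, which bridges GINS and the ring, had a log2 fold change of -0.93, Gins1 -0.83 and Gins4 -0.60. Mcm10, which acts when the helicase is switched on, was the only one of the 6 called in HG against Ctrl and is named after its values were seen. It was at 8.69 and 9.85 FPKM in Ctrl, 6.73 and 7.39 in HG, then 4.49 and 3.94 in siFGFR1+HG. Its 3 groups lay apart, with log2 fold changes of -0.41 ± 0.092 in HG against Ctrl (adjusted p = 0.0347, lost in 7 of the 16 alternatives) and -0.73 ± 0.094 in siFGFR1+HG against HG (adjusted p = 0.00247).

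Of the 9 primase and polymerase genes, 8 fell in siFGFR1+HG against HG (median log2 fold change -0.57), a smaller median than that of licensing or the ring, a difference that was not tested. Pold1, the catalytic subunit of polymerase delta, which copies the lagging strand, was at 13.7 and 13.7 FPKM in Ctrl, 13.02 and 11.8 in HG, then 7.11 and 7.03 in siFGFR1+HG. It had the largest fall of the 9, with a log2 fold change of -0.80 ± 0.060 (adjusted p = 0.000466). Pold2, an accessory subunit of the same enzyme, was at 57.1 and 54.3 FPKM in Ctrl, 53.0 and 50.6 in HG, then 38.3 and 38.5 in siFGFR1+HG. It had the smallest, -0.42 ± 0.046 (adjusted p = 0.00146), so 2 subunits of 1 enzyme stood at either end, and Pold3, a further subunit, had -0.57. The primase subunits Prim1 and Prim2, which lay down RNA primers, had log2 fold changes of -0.67 and -0.57, and Pola2, the accessory subunit of polymerase alpha, -0.61. Pole2, an accessory subunit of polymerase epsilon and the lowest of the 44 in level, was the member that missed the threshold in edgeR, and DESeq2 called it. It was at 4.34 and 3.70 FPKM in Ctrl, 4.23 and 3.21 in HG, then 2.35 and 2.48 in siFGFR1+HG, with a log2 fold change of -0.61 ± 0.19 (adjusted p = 0.0572), and all its siFGFR1+HG values lay under its HG values.

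Pole and Pola1 were the 2 polymerase genes called lower in HG against Ctrl, and are described after their values were seen. Pole, the catalytic subunit of polymerase epsilon, which copies the leading strand, was at 19.7 and 19.1 FPKM in Ctrl, 15.2 and 14.6 in HG, then 10.2 and 10.7 in siFGFR1+HG. Both HG libraries lay below both Ctrl libraries, with a log2 fold change of -0.40 ± 0.045 (adjusted p = 0.00476), close in size to the further -0.50 ± 0.045 in siFGFR1+HG against HG (adjusted p = 0.000850). Pola1, the catalytic subunit of polymerase alpha, which extends RNA primers with DNA, was at 12.6 and 12.7 FPKM in Ctrl, 9.92 and 9.92 in HG, then 7.11 and 6.56 in siFGFR1+HG. The 3 groups again lay apart, with log2 fold changes of -0.37 ± 0.051 (adjusted p = 0.00840) and -0.52 ± 0.051 (adjusted p = 0.000995) in the 2 steps.

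All 6 clamp and clamp loader genes fell in siFGFR1+HG against HG (median log2 fold change -0.79). None was called in HG against Ctrl by edgeR (smallest adjusted p 0.0933), beside 7.85% of all tested genes called lower and 5.81% higher. At an unadjusted p under 0.05, 1 lower and 1 higher passed there, while DESeq2 called 1 lower and limma 0. Rfc5, a small subunit of the loader, was at 29.4 and 31.8 FPKM in Ctrl, 33.6 and 32.9 in HG, then 17.6 and 18.1 in siFGFR1+HG. It lay higher in both HG than in both Ctrl libraries (log2 fold change 0.10, adjusted p = 0.252), and it was 1.85-fold lower in siFGFR1+HG than in HG (log2 fold change -0.88 ± 0.054, adjusted p = 0.000265). Rfc1, the large subunit of the loader, was at 11.2 and 12.3 FPKM in Ctrl, 10.8 and 11.2 in HG, then 9.22 and 8.95 in siFGFR1+HG. Its fall was the smallest of the 44, with a log2 fold change of -0.26 ± 0.059 (1.20-fold lower, adjusted p = 0.0188), and the call was lost in 4 of the 16 alternatives. The other small subunits, which also serve in other clamp loaders, had log2 fold changes of -0.85 for Rfc2, -0.49 for Rfc3 and -0.85 for Rfc4. Pcna, the clamp itself and the most abundant of the 44, is added after its values were seen. It was at 153 and 163 FPKM in Ctrl, 140.5 and 149 in HG, then 86.6 and 85.2 in siFGFR1+HG, and fell by 0.74 ± 0.047 on the log2 scale against HG (adjusted p = 0.000282).

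The 5 genes that cover single-stranded DNA and join Okazaki fragments, the short pieces of the lagging strand, fell in siFGFR1+HG against HG as well (median log2 fold change -0.65). Fen1, the nuclease that trims the flap between fragments, was at 39.3 and 43.6 FPKM in Ctrl, 41.3 and 42.6 in HG, then 21.7 and 21.4 in siFGFR1+HG. Ctrl and HG overlapped, and siFGFR1+HG was 1.93-fold below HG (log2 fold change -0.95 ± 0.057, adjusted p = 0.000253). Lig1, the ligase that seals the fragments, was at 27.6 and 25.7 FPKM in Ctrl, 17.9 and 24.0 in HG, then 15.2 and 15.5 in siFGFR1+HG. The HG libraries stood far apart, and the log2 fold change of -0.44 ± 0.13 (adjusted p = 0.0458) lost its call in 11 of the 16 alternatives. In HG against Ctrl its log2 fold change was -0.36 ± 0.13 (adjusted p = 0.115). Rpa1, Rpa2 and Rpa3, the subunits of the protein that coats single strands, had log2 fold changes of -0.61, -0.69 and -0.65 in siFGFR1+HG against HG. Rpa3 had the highest log2 fold change of the 44 in HG against Ctrl, 0.20 ± 0.097 (adjusted p = 0.216).

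**Figure D3:**
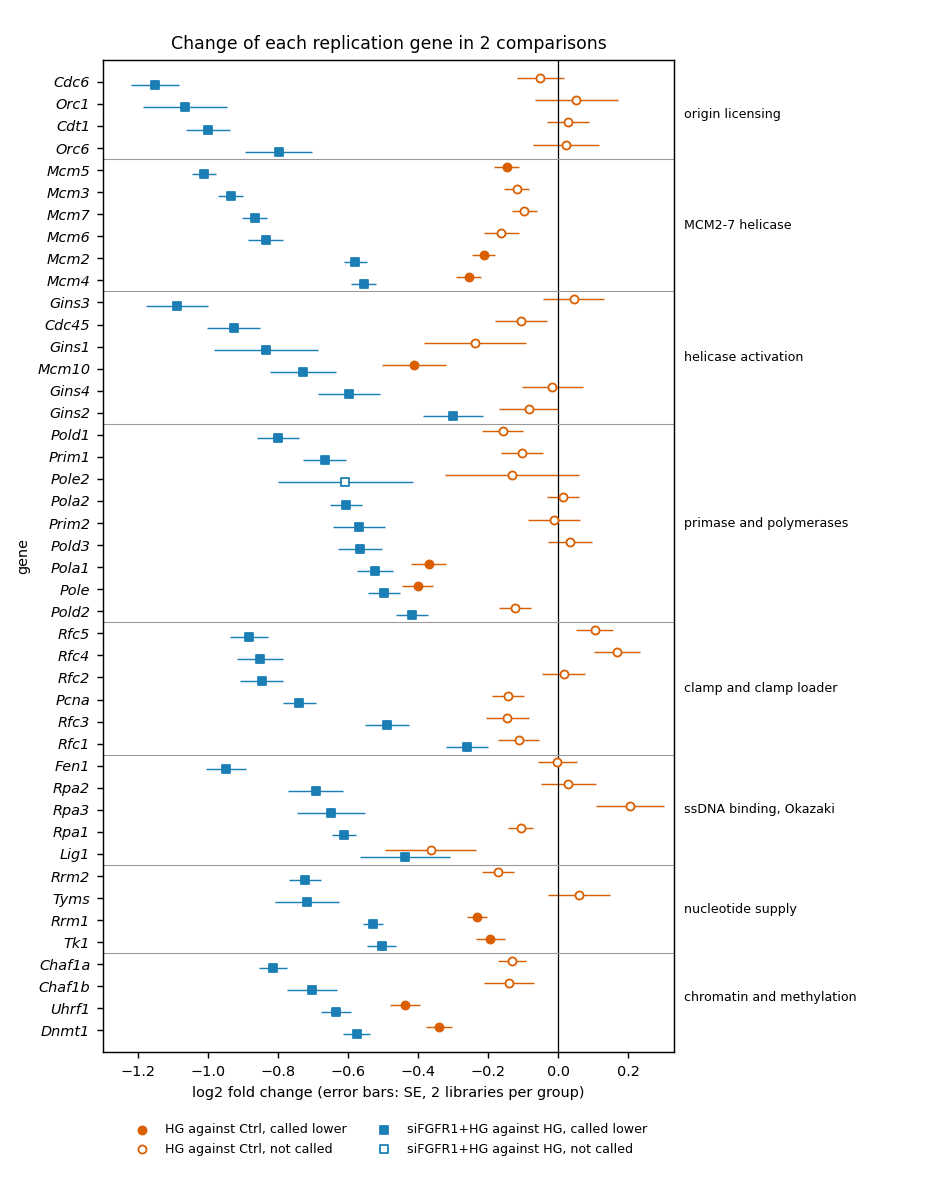
Log2 fold change with its standard error for each of the 44 replication genes, in HG against Ctrl (orange circles) and siFGFR1+HG against HG (blue squares), filled where called lower. The squares run from -1.15 for Cdc6 to -0.26 for Rfc1, and 10 circles are filled.

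Genes that supply deoxynucleotides fell in siFGFR1+HG against HG in 4 of 4 cases (median log2 fold change -0.62). Rrm2, the small subunit of ribonucleotide reductase, the enzyme that makes deoxynucleotides, was at 141 and 131 FPKM in Ctrl, 122 and 123 in HG, then 74.6 and 72.4 in siFGFR1+HG. All 3 groups lay apart, and the log2 fold change against HG was -0.72 ± 0.046 (adjusted p = 0.000286). Tk1, the thymidine salvage kinase, was at 73.3 and 76.4 FPKM in Ctrl, 65.9 and 66.6 in HG, then 47.6 and 45.0 in siFGFR1+HG. Its fall was the smallest of the 4, -0.50 ± 0.041 on the log2 scale (adjusted p = 0.000625), and it was also called in HG against Ctrl (-0.19 ± 0.041, adjusted p = 0.0293, lost in 7 of the 16 alternatives). Rrm1, the large subunit of the reductase, is added after its values were seen, and was at 116 and 118 FPKM in Ctrl, 100.4 and 101 in HG, then 68.9 and 69.4 in siFGFR1+HG. It fell in both steps, by log2 fold changes of -0.23 ± 0.029 (adjusted p = 0.00636) and -0.53 ± 0.029 (adjusted p = 0.000233). Tyms, which makes thymidylate, had log2 fold changes of 0.06 (adjusted p = 0.717) and -0.72 (adjusted p = 0.00234).

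The 4 genes that rebuild chromatin and copy DNA methylation fell in siFGFR1+HG against HG (median log2 fold change -0.67). In HG against Ctrl edgeR called 2 of the 4 lower, beside 7.85% of all tested genes, while DESeq2 called 3 lower and limma 2. Chaf1a, the large subunit of the CAF-1 complex, which places histones on new DNA, was at 36.7 and 35.5 FPKM in Ctrl, 32.8 and 34.0 in HG, then 18.9 and 18.7 in siFGFR1+HG. It had the largest fall of the 4 against HG, -0.82 ± 0.040 on the log2 scale (adjusted p = 0.000177), and Chaf1b, its partner, had -0.70. Dnmt1, the enzyme that copies methylation to the new strand, was at 36.5 and 37.3 FPKM in Ctrl, 29.8 and 29.3 in HG, then 19.2 and 20.005 in siFGFR1+HG. It fell by log2 fold changes of -0.34 ± 0.038 in HG against Ctrl (adjusted p = 0.00474) and -0.58 ± 0.038 in siFGFR1+HG against HG (adjusted p = 0.000330). Uhrf1, which recognises hemimethylated DNA and brings Dnmt1 to it, is described after its values were seen, and was at 59.6 and 61.4 FPKM in Ctrl, 43.9 and 46.6 in HG, then 28.6 and 29.1 in siFGFR1+HG. Its log2 fold change of -0.44 ± 0.042 in HG against Ctrl (1.35-fold lower, adjusted p = 0.00293) was the largest fall of the 44 in that comparison, followed by -0.63 ± 0.042 in siFGFR1+HG against HG (adjusted p = 0.000323). The 5 genes whose HG call held in all 16 alternatives were Uhrf1, Pole, Pola1, Dnmt1 and Rrm1.

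Over the 44 genes, the log2 fold change in siFGFR1+HG against HG had Pearson's r of 0.02 and Spearman's rho of 0.02 with log2 FPKM in Ctrl. In HG against Ctrl the values were -0.17 and -0.31, and in siFGFR1+HG against Ctrl -0.11 and -0.07. These are descriptions across genes measured in the same libraries, and the Ctrl level also enters the last 2 comparisons. Reads of overlapping genes could not be assigned by strand, since strand use in counting is not given in the sources used here. Mcm7 holds the microRNA genes Mir25, Mir93 and Mir106b, none of which had more than 31 counts in a library. Pola2 shares 7643 bases with Cdc42ep2, which had at most 551 counts where Pola2 had at least 2283, and Pold2 shares 13 bases with Aebp1.

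Other genes of the same pathways, taken from lists and not from the 45, mostly fell in siFGFR1+HG as well. These lists too were chosen with earlier results of these data known. Of 71 such genes, all tested, 50 fell, 3 rose and 18 missed the threshold in siFGFR1+HG against HG, beside 15.9% of all tested genes called lower and 14.1% called higher, with a median log2 fold change of -0.42. In HG against Ctrl 12 fell and 1 rose, Rnaseh2a (0.25 ± 0.062, adjusted p = 0.0466), beside 7.85% of tested genes called lower and 5.81% called higher. Among the 8 further licensing genes 4 fell, with a median of -0.22. Gmnn, the inhibitor of Cdt1, was at 24.2 and 24.8 FPKM in Ctrl, 24.7 and 26.1 in HG, then 13.2 and 9.95 in siFGFR1+HG, a log2 fold change of -1.12 ± 0.13 against HG (adjusted p = 0.00172), and Mcmbp, which binds MCM proteins, had -0.31 ± 0.049 (adjusted p = 0.00517). The origin subunits Orc3 (0.34, adjusted p = 0.194), Orc4 (-0.12, adjusted p = 0.222) and Orc5 (-0.14, adjusted p = 0.150) missed the threshold, where Orc1 and Orc6 fell. Of 11 further firing genes 10 fell (median -0.57), among them the S phase cyclins Ccna2 (-0.76 ± 0.050, adjusted p = 0.000306) and Ccne1 (-0.68 ± 0.058, adjusted p = 0.000679).

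Of 18 further fork and polymerase genes 14 fell and 1 rose in siFGFR1+HG against HG (median -0.51). Beside these and the 2 lists that follow, 15.9% of all tested genes were called lower and 14.1% higher. The share of the 18 that rose was below that background. Pclaf, which binds Pcna, had a log2 fold change of -0.997 ± 0.061 (adjusted p = 0.000267), and Wdhd1, which links the helicase to polymerase alpha, -0.78 ± 0.053 (adjusted p = 0.000340). Pold4, the smallest subunit of polymerase delta, rose, with a log2 fold change of 0.44 ± 0.11 (adjusted p = 0.0239) where Pold1, Pold2 and Pold3 fell. It was at 14.7 and 14.9 FPKM in Ctrl, 16.3 and 14.6 in HG, then 20.3 and 21.2 in siFGFR1+HG, and the call was lost without HG replicate 2 or without either siFGFR1+HG library. Nucleotide genes fell in 7 of 12 cases (median -0.31), among them Umps (-0.50 ± 0.046, adjusted p = 0.000850), an enzyme of pyrimidine synthesis. Chromatin assembly genes fell in 9 of 10 cases (median -0.47), with Hat1, which acetylates new histones, at -0.65 ± 0.040 (adjusted p = 0.000277) and Ssrp1, of the histone chaperone FACT, at -0.42 ± 0.033 (adjusted p = 0.000542).

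Of 12 further genes of the E2F and RB family 6 fell and 2 rose in siFGFR1+HG against HG (median -0.37), beside 15.9% of all tested genes called lower and 14.1% called higher, so the share that rose was near the background. E2f2, an activating E2F, was at 3.43 and 3.72 FPKM in Ctrl, 2.95 and 2.91 in HG, then 1.504 and 1.29 in siFGFR1+HG, a log2 fold change of -1.05 ± 0.12 against HG (adjusted p = 0.00177), and Tfdp1, the partner that E2F factors bind DNA with, had -0.39 ± 0.049 (adjusted p = 0.00219). Rb1, the retinoblastoma protein that binds and restrains E2F, was at 5.55 and 5.46 FPKM in Ctrl, 4.44 and 4.31 in HG, then 5.86 and 5.41 in siFGFR1+HG. It rose by a log2 fold change of 0.38 ± 0.093 (adjusted p = 0.0257), a call lost without Ctrl replicate 1, either HG library or siFGFR1+HG replicate 1. Rbl2, a related protein, rose by 0.39 ± 0.062 (adjusted p = 0.00534), from 9.73 and 9.51 FPKM in HG to 12.4 and 12.5 in siFGFR1+HG.

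The annotation column of the deposited table puts 36 genes in the KEGG pathway DNA replication, of which 26 are among the 44. Of the other 10, 5 fell and 1 rose in siFGFR1+HG against HG, beside 15.9% of tested genes called lower and 14.1% called higher, with a median log2 fold change of -0.22. A list of 17 measured mitosis genes fell throughout (17 of 17, median -0.42, range -0.57 to -0.27), beside 15.9% of tested genes. The 2 with the smallest p were Mki67 (-0.51 ± 0.029, adjusted p = 0.000238), a proliferation marker, and Foxm1 (-0.57 ± 0.049, adjusted p = 0.000732), a factor that drives mitotic genes. Their median fall was smaller than that of the replication genes (-0.42 against -0.70), a difference that was not tested. In HG against Ctrl 7 of the 17 fell (median -0.16), beside 7.85% of tested genes.

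**Figure D4:**
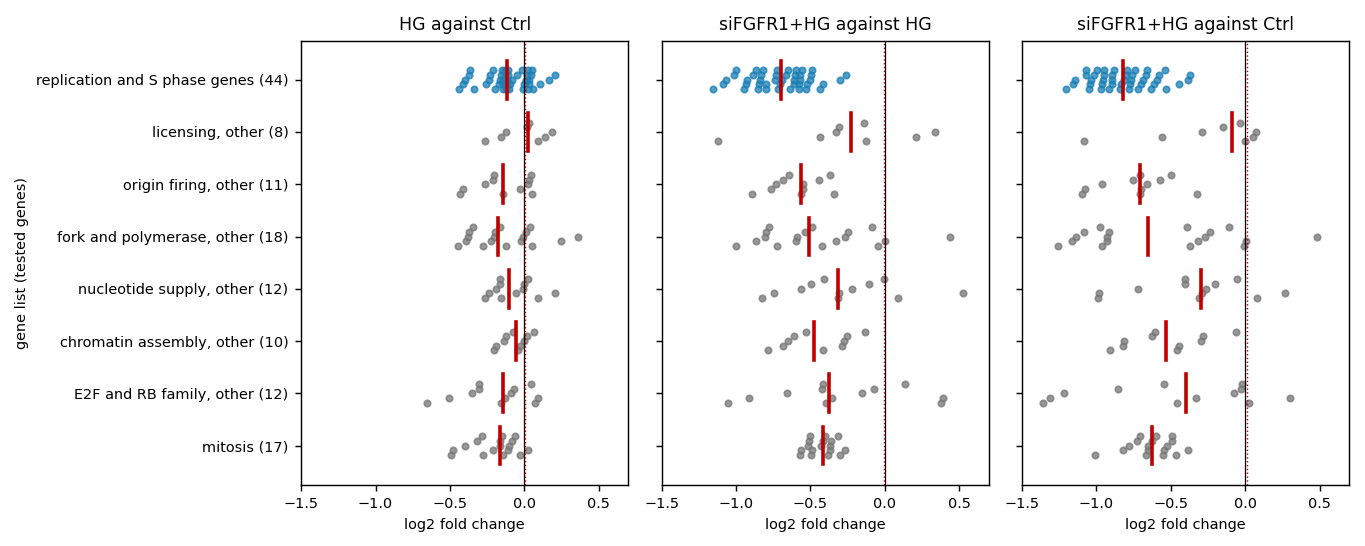
Log2 fold change of each gene by list (points) in the 3 comparisons, with the median of each list (red bar) and of all genes tested (dotted line). In siFGFR1+HG against HG the medians run from -0.70 for the replication genes to -0.22 for further licensing genes.

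Muscle and fibroblast markers differed between the groups. Of the cardiomyocyte and macrophage markers, 2 of each were tested and none was called in any comparison. Among muscle markers, Myod1, Myog and Des were present and Myf5 was at 0 in all libraries. The list summed to 268 to 278 FPKM in Ctrl, 266 to 270.3 in HG and 191 to 192 in siFGFR1+HG. Of its 8 tested genes, 2 fell in HG against Ctrl and 5 in siFGFR1+HG against HG. Beside these, 7.85% and 15.9% of all tested genes were called lower. Fibroblast markers, mainly Col1a1 and with Tcf21 at 0, summed to 3988 to 4248, 3798 to 3835 and 5117 to 5181 FPKM. Of the 5 tested, 4 fell in HG against Ctrl, beside 7.85% of all tested genes called lower. All 5 rose in siFGFR1+HG against HG, beside 14.1% called higher. The part of muscle and fibroblast markers in the fall of the replication genes was not tested. Cardiomyocyte markers summed to between 8.49 and 10.6 FPKM, nearly all Gata4 and Nkx2-5, with Nppa, Nppb, Tnni3, Myh6, Myh7 and Ryr2 at or near 0 in every library. Ptprc, Cdh5 and Epcam, which mark macrophages and other white blood cells, endothelium and epithelium, were at 0 throughout. They are 1 gene of each list. Of the 6 macrophage, 4 endothelial and 5 epithelial markers with a row, 2, 0 and 1 passed the filter for testing. The sums of the macrophage, endothelial and epithelial lists lay between 10.4 and 12.2, 0.0287 and 0.311, and 18.3 and 26.1 FPKM, the last mainly Krt8. The 1 epithelial marker tested fell in HG against Ctrl (log2 fold change -0.36) and in siFGFR1+HG against Ctrl (-0.46). It was not called in siFGFR1+HG against HG.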

How the data were processed

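RNA of 6 H9C2 libraries was sequenced, 2 per group. Per the submitters' processing notes, fastp, HISAT2 and StringTie were used, with no versions. The notes name the human build GRCh38, while the gene identifiers are rat, so the build of the table's coordinates is unsure. The deposited table holds counts per gene and the authors' FPKM values, in which 0.0001 stands for a count of 0. Counts were tested with edgeR 4.0.16 (R 4.3.3) as quasi-likelihood fits with TMM scaling (trimmed mean of M values), 1 mean per group over all 6 libraries (3 residual degrees of freedom), on the 12229 genes that reached 1 FPKM in 2 or more libraries. A call is an adjusted p (Benjamini-Hochberg over those genes) under 0.05. Values after ± are standard errors derived from the test, as the absolute log2 fold change divided by the square root of its F statistic. Their median at this depth was 0.0872 in siFGFR1+HG against HG. The 16 alternatives used other scalings, filters, limma 3.58.1, DESeq2 1.42.0, a replicate block or 1 library fewer. The steps were tested on simulated data. The members and lists were chosen with earlier results of these data known. By rule the text names Mcm2 to Mcm7, the largest and smallest fall in each other role, and, of each other list, the 2 genes with the smallest p and any gene called against its list. A gene that the rule names is not reported here. Other genes were named after their values were seen. Promoters came from RefSeq (GRCr8).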

Additional observations from a re-analysis of the deposited data

How the results depend on the processing

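Over 16 alternatives, the calls of 40 of 43 replication genes in siFGFR1+HG against HG and 41 of 44 in siFGFR1+HG against Ctrl held throughout, and 5 of 10 in HG against Ctrl. In siFGFR1+HG against HG all 44 stayed negative in every alternative. Pole2 was called there with DESeq2 (adjusted p = 0.0205) and without HG replicate 2 (0.0376), and Lig1 in HG against Ctrl without HG replicate 2 (0.0141). In siFGFR1+HG against HG calls were lost in some alternatives for Gins2, Rfc1 and Lig1, in siFGFR1+HG against Ctrl for Gins2, Pole2 and Rpa3, and in HG against Ctrl for Mcm2, Mcm4, Mcm5, Mcm10 and Tk1. In HG against Ctrl the count of all genes called went from 1670 to 2616 with DESeq2, and of replication genes called lower from 10 to 17. With limma on log2(FPKM + 1) or log2(FPKM + 0.1), 1 replication gene (Rpa3) was called higher, and all called genes split into 688 higher and 506 lower at the larger pseudocount, beside 710 and 960. Without each library in turn, genes called ranged from 469 to 1311 in HG against Ctrl (469 without Ctrl replicate 1, 530 without Ctrl replicate 2, 876 without HG replicate 1, 728 without HG replicate 2), 2303 to 3260 beside 3661 in siFGFR1+HG against HG (2383 and 2303 without siFGFR1+HG replicate 1 or 2), and 1394 to 2601 beside 2723 in siFGFR1+HG against Ctrl (1504 and 1394 without Ctrl replicate 1 or 2, 1492 and 1585 without siFGFR1+HG replicate 1 or 2). Replication genes called lower ranged from 5 to 9 (5 without either Ctrl library), 40 to 42 and 41 to 44, and those called higher were 0 throughout. The lone library of a group was then assumed to vary like the other groups. The cause of these shifts beyond fewer samples was not tested.

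Signs reversed only in HG against Ctrl, for 15 genes, none of them called: under limma at a pseudocount of 1 (Gins4 0.00206, Prim2 0.00963, Fen1 0.0173) and of 0.1 (Gins4 0.00214, Prim2 0.0103, Fen1 0.0177), and without 1 library, where log2 fold changes ranged over Cdc6 -0.13 to 0.0213, Cdt1 -0.044 to 0.0965, Gins2 -0.19 to 0.0138, Gins3 -0.0271 to 0.11, Gins4 -0.095 to 0.0669, Rfc2 -0.0488 to 0.0766, Pola2 -0.0152 to 0.044, Prim2 -0.0922 to 0.0772, Pold3 -0.023 to 0.0945, Pole2 -0.35 to 0.0556, Rpa2 -0.016 to 0.0732, Fen1 -0.0717 to 0.0719, Orc1 -0.0648 to 0.18, Orc6 -0.00375 to 0.0502, Tyms -0.0485 to 0.16. Samples with equal replicate numbers shared little deviation from their group means. Over 12229 genes r was 0.0606 (Ctrl, HG), -0.0973 (HG, siFGFR1+HG) and 0.0736 (Ctrl, siFGFR1+HG). The labels name no pairing, and these deviations include counting noise, so they cannot settle whether samples were paired. With a replicate block, 1153, 3253 and 2323 genes were called in HG against Ctrl, siFGFR1+HG against HG and siFGFR1+HG against Ctrl, and 7, 41 and 43 replication genes were called lower. Pole2, the lowest of the 44 in level, had the widest standard error in siFGFR1+HG against HG (0.193), and with counts divided by 4 the number of replication genes called lower there stayed at 43. The part of depth in the errors was not tested.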
